A study of Mus musculus with 18 samples.

Results

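The 9 genes described here encode transcriptional regulators of the heart, most of them active in its development, and all were expressed in the adult LV studied here. They are Gata4, Gata6, Nkx2-5, Hand2, Tbx20, Srf, Myocd, Tead1 and Klf15, 9 of 55450 genes in the count table. They were chosen by name for these roles, with earlier results of these data known. All 9 passed the filter on low counts, which kept 16270 genes.

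RNA was sequenced from frozen left ventricle (LV) of male FVB/N mice aged 20 weeks, in a study of ertugliflozin (ERTU) in a model of heart failure. ERTU blocks SGLT2, which takes up glucose in the kidney tubule. Mice with cardiac-specific overexpression of Gαq, the alpha subunit of a heterotrimeric G protein, and wild-type (WT) littermates were fed control diet (CD) or chow that held 0.5 mg ERTU per g, starting at 4 weeks of age and lasting 16 weeks. Each heart gave 1 library, 4 from WT mice on CD (WT CD), 5 from WT mice on ERTU, 5 from Gαq mice on CD and 4 from Gαq mice on ERTU. The promoter that drives the transgene was not given in the sources used here.

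These factors work as a network. GATA4, GATA6, NKX2-5, HAND2 and TBX20 form the core of the cardiac program: they bind DNA at neighbouring elements, bind each other and switch on genes of the sarcomere, of conduction and of natriuretic peptides. SRF binds the CArG box and, with its muscle coactivator myocardin (encoded by Myocd), drives cytoskeletal and contractile genes. TEAD1 binds the M-CAT element and is the DNA-binding partner of YAP at the end of the Hippo pathway. KLF15 acts mainly after birth, when it restrains hypertrophic growth and supports the breakdown of fatty acids and branched-chain amino acids, and glucocorticoids are known to induce it.

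For 5 of the 9 genes (Nkx2-5, Hand2, Tbx20, Srf and Klf15) the 250 bases before the transcription start were read from RefSeq promoters of mouse build GRCm38.p6. Gata4, Gata6, Myocd and Tead1 had no entry. Those of Klf15 and Hand2 are shown because both genes differed between genotypes, and that of Srf because it holds the element that SRF itself binds. Capitals mark matches to the motifs of the factors, searched on both strands.
Klf15 (chr6:90462326-90462575, plus strand): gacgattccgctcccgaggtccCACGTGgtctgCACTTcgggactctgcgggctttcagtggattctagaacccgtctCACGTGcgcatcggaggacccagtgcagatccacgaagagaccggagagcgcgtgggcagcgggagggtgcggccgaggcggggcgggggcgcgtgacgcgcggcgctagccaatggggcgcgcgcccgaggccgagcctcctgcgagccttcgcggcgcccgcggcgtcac
Hand2 (chr8:57320733-57320982, plus strand): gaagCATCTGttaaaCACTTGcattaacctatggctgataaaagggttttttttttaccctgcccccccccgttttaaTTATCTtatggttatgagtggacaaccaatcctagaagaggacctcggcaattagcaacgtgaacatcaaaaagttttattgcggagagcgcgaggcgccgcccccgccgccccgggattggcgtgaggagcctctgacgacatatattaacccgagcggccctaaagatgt
Srf (chr17:46556163-46556412, minus strand): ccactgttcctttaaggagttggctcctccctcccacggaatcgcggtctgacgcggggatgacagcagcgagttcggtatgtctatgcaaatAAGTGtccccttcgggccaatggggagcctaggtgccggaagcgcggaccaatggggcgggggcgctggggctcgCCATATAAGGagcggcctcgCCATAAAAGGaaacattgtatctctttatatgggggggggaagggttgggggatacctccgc
The motifs were the GATA element AGATAA, the NK2 element AAGTG, the T-box site AGGTGT, the M-CAT element CATTCC, the E-box CANNTG, the glucocorticoid receptor motif AGAACA and the CArG box. The Klf15 stretch, 72.0% G and C, held 2 copies of the E-box CACGTG, at bases -228 to -223 and -172 to -167 from the start, and 1 NK2 element. The Hand2 stretch, 49.2% G and C, held 1 GATA element (TTATCT on the printed strand, bases -172 to -167), the E-boxes CATCTG and CACTTG, and an NK2 element that lies inside CACTTG. The Srf stretch held 2 CArG boxes, at bases -82 to -73 and -62 to -53, and 1 NK2 element. Of the other promoters, that of Nkx2-5 held 1 E-box and that of Tbx20 no match. Over 32841 promoters of this length, 66.2% held an E-box, 40.7% an NK2 element, 16.1% a glucocorticoid receptor motif, 12.6% an M-CAT element, 11.8% a T-box site, 9.99% a GATA element and 1.47% a CArG box. A match describes letters only and is not a measured binding site.

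Total counts ran from 15383566 to 20908363 per library. Gnaq, the gene of Gαq, checked the labels, at 45.5 to 230 CPM (counts relative to the library total, scaled by TMM) over the 9 WT libraries and 1641 to 11670 CPM over the 9 Gαq libraries. It averaged 7473 ± 3818 CPM (SD, n = 5) in Gαq CD and 3216 ± 1371 (n = 4) in Gαq ERTU. Those groups overlapped, at 1641 to 11670 and 2236 to 5207 CPM. The part of this difference in comparisons that use the treated Gαq hearts was not tested. Cardiomyocyte markers were abundant in all 18 libraries, with a sum over 10 genes of 36310 to 52450 CPM. Some libraries stood apart in genes that are not members. Myl7, the atrial myosin light chain, exceeded 20 CPM in 9 libraries spread over the 4 groups (WT CD 1 and 5, Gαq CD 8 and 9, WT ERTU 13 and 14, Gαq ERTU 16, 17 and 20). Pdk4, the kinase that shuts off pyruvate oxidation, was under 300 CPM in 4 libraries (WT CD 4, Gαq CD 7, 8 and 9). Calls that changed without these libraries are given both ways, except on ERTU without those high in Myl7, where 1 Gαq library was left. Libraries carry the numbers of the count table, and 1 mouse gave each.

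Levels of different factors were compared per length of transcript. In WT CD hearts the level per kilobase of exon was highest for Nkx2-5 (33.7 ± 3.69 CPM per kb, SD, n = 4), then Srf (31.2 ± 6.24), Klf15 (30.0 ± 7.82), Gata4 (25.3 ± 3.42) and Hand2 (24.8 ± 3.12). Tead1 (13.5 ± 1.10), Gata6 (9.33 ± 0.588), Tbx20 (8.89 ± 1.90) and Myocd (3.71 ± 1.13) followed on the same scale. Neighbours in this order overlapped between libraries, except Hand2 over Tead1, Tead1 over Gata6 and Tbx20 over Myocd. The values below are CPM, which compare libraries and not genes.

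**Figure D1:**
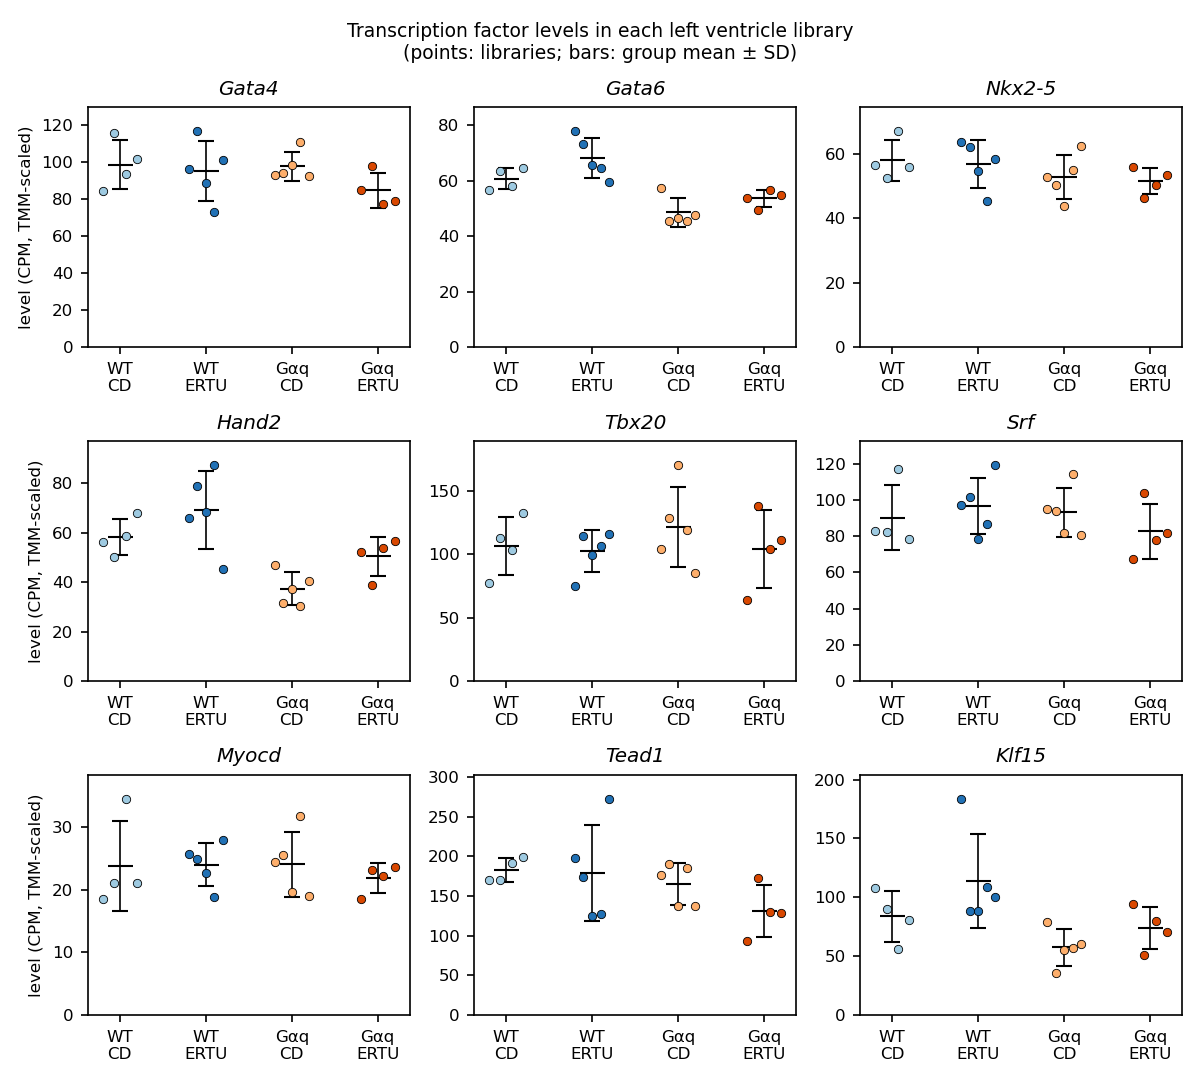
Level of each of the 9 factors in every LV library, in CPM scaled by TMM on the vertical axis, by group on the horizontal axis, with the group mean ± SD. The means of Gata6, Hand2 and Klf15, the 3 factors called by genotype, lie lower in each Gαq group than in the WT group on the same diet, as do those of Gata4, Nkx2-5 and Tead1, which were not called. Libraries of Gαq and WT are apart only for Hand2 on CD and Gata6 on ERTU. The share of all genes tested whose groups lie apart was not counted.

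The comparison of genotypes, with diet in the model, asked which factors differed in hearts that overexpress Gαq. Gata6, Hand2 and Klf15 were lower in Gαq, 1.26-fold, 1.46-fold and 1.50-fold, and the other 6 did not pass the test. Thus 3 of 9 factors had an adjusted p under 0.05 by the quasi-likelihood F test of edgeR, all 3 lower, where 19.6% of all genes tested passed, 9.92% lower and 9.72% higher. The median log2 change was -0.14 over the 9 factors and 0.00 over all genes tested. Since the factors were chosen with earlier results of these data known, these shares are descriptions. In bulk LV RNA, fewer cells that make a transcript and less of it per cell cannot be told apart.

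Gata6 encodes the GATA factor that shares DNA sites and many functions with GATA4. Its gene lies on the plus strand of chromosome 18 at 11052064 to 11085635. In WT CD libraries 1, 2, 4 and 5 it stood at 56.8, 63.5, 58.1 and 64.4 CPM, and in Gαq CD libraries 6 to 10 at 57.5, 45.4, 46.7, 45.4 and 47.6 CPM. Gαq CD library 6 reached the WT range and the other 4 lay below it. In WT ERTU libraries 11 to 15 Gata6 was at 77.9, 73.2, 65.5, 64.7 and 59.7 CPM, and in Gαq ERTU libraries 16, 17, 18 and 20 at 53.6, 49.6, 56.7 and 55.0 CPM. On ERTU every Gαq library lay below every WT library. The log2 change by genotype was -0.33 ± 0.06 (SE, edgeR adjusted p = 0.000692). It was -0.32 ± 0.09 on CD (edgeR adjusted p = 0.0349) and -0.34 ± 0.09 on ERTU (edgeR adjusted p = 0.0244, exact permutation p = 0.0159, 2-sided, the smallest that 4 against 5 libraries allow). An antisense transcript, 1010001N08Rik, shares 93 exon bases with Gata6, averaged 10.3 CPM and was lower in Gαq by genotype as well (log2 change -0.28 ± 0.09, edgeR adjusted p = 0.0218).

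Hand2 encodes the basic helix-loop-helix factor needed for growth of the right ventricle in the embryo, and lies on chromosome 8 at 57320983 to 57324633. It was at 56.2, 50.2, 58.8 and 67.9 CPM in WT CD libraries 1, 2, 4 and 5 and at 46.9, 31.7, 37.3, 30.5 and 40.6 CPM in Gαq CD libraries 6 to 10. All 5 Gαq CD libraries lay below all 4 WT CD libraries. WT ERTU libraries 11 to 15 gave 66.0, 79.0, 68.3, 87.4 and 45.1 CPM, and Gαq ERTU libraries 16, 17, 18 and 20 gave 52.2, 38.6, 53.9 and 56.8 CPM. WT ERTU library 15 was the only treated WT library within the Gαq ERTU range. By genotype the log2 change was -0.55 ± 0.12 (SE, edgeR adjusted p = 0.00171). On CD it was -0.64 ± 0.17 (edgeR adjusted p = 0.0195, exact permutation p = 0.0159) and on ERTU -0.46 ± 0.17, which did not pass (edgeR adjusted p = 0.10). Without WT ERTU library 15 the change on ERTU was -0.58, which passed (edgeR adjusted p = 0.0207), but it did not pass in the other 17 of 18 fits that left 1 library out, and was -0.35 without Gαq ERTU library 17.

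Hand2 overlaps an antisense long noncoding RNA, Hand2os1, which shares 461 of the 2351 exon bases of Hand2. Hand2os1 averaged 82.5 ± 8.62 CPM (SD, n = 4) in WT CD, 91.6 ± 16.6 (n = 5) in WT ERTU, 58.2 ± 7.47 (n = 5) in Gαq CD and 69.5 ± 8.65 (n = 4) in Gαq ERTU. Its log2 change by genotype was -0.45 ± 0.09 (SE, edgeR adjusted p = 0.00113). The study's methods give a same-strand setting for the counting, while the kit is not named there as a directional one, so whether reads over the shared bases of Hand2 and Hand2os1, and of Gata6 and its antisense partner, were split by strand was not tested.

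Klf15 encodes the metabolic Krüppel-like factor of adult heart, and lies on chromosome 6 at 90462576 to 90475238. Between hearts of 1 group its level varied by up to 1.15 on the log2 scale, little more than that of Tead1 (1.12) and Tbx20 (1.11). It was at 108, 90.3, 55.8 and 81.0 CPM in WT CD libraries 1, 2, 4 and 5 and at 78.9, 35.6, 55.4, 57.1 and 60.4 CPM in Gαq CD libraries 6 to 10. These 2 groups overlapped, with WT CD library 4 among the Gαq values. On ERTU, WT libraries 11 to 15 were at 184, 88.7, 88.1, 109 and 99.99 CPM, and Gαq libraries 16, 17, 18 and 20 at 94.3, 51.0, 79.8 and 70.8 CPM. WT ERTU library 11 was far above all others, and Gαq ERTU library 16 was the only Gαq value within the treated WT range. The log2 change by genotype was -0.58 ± 0.17 (SE, edgeR adjusted p = 0.0162). Neither diet alone passed, with -0.55 ± 0.24 on CD (edgeR adjusted p = 0.193) and -0.62 ± 0.24 on ERTU (edgeR adjusted p = 0.129), which became -0.38 without WT ERTU library 11.

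The other members of the core, Gata4, Nkx2-5 and Tbx20, gave no call by genotype. For Gata4 the log2 change was -0.09 ± 0.09 (SE), for Nkx2-5, the earliest marker of the cardiac lineage, -0.14 ± 0.08, and for Tbx20, a T-box factor that adult cardiomyocytes need, 0.11 ± 0.14 (edgeR adjusted p = 0.503, 0.235 and 0.653). Gata4 was at 84.3 to 116 CPM in WT CD, 73.3 to 117 in WT ERTU, 92.6 to 111 in Gαq CD and 77.7 to 98.3 in Gαq ERTU. Tbx20 ranged most in Gαq hearts, from 85.4 to 171 CPM on CD and from 63.8 to 138 CPM on ERTU.

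Srf, Myocd and Tead1 gave no call either. Srf changed by -0.09 ± 0.11 and Myocd by -0.06 ± 0.12 on the log2 scale (SE, edgeR adjusted p = 0.613 and 0.787). Both were highest in WT CD library 4 among the WT CD hearts, Srf at 117 CPM against 78.6 to 82.8 in the other 3, and Myocd at 34.5 CPM against 18.5 to 21.2. Tead1 averaged 183 ± 14.9 CPM (SD, n = 4) in WT CD, 180 ± 60.6 (n = 5) in WT ERTU, 165 ± 26.0 (n = 5) in Gαq CD and 131 ± 32.5 (n = 4) in Gαq ERTU. Its log2 change by genotype was -0.30 ± 0.14 (SE, unadjusted p = 0.0464, edgeR adjusted p = 0.149). The groups overlapped, with WT ERTU library 15 highest at 272 CPM and Gαq ERTU library 16 lowest at 93.4 CPM.

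**Figure D2:**
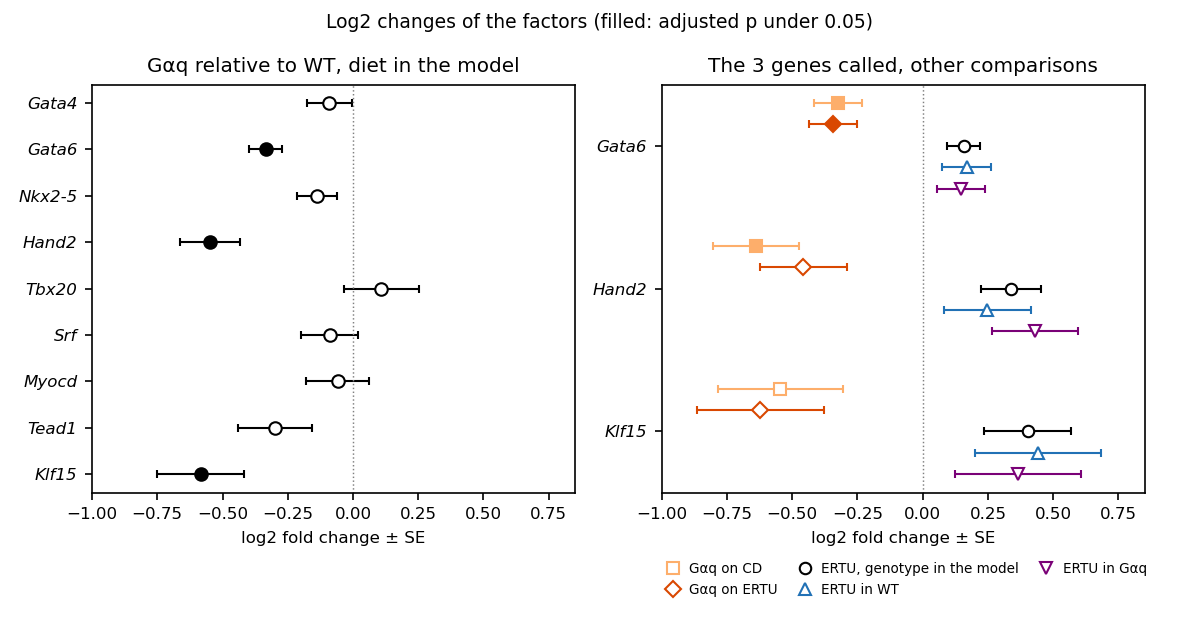
Log2 fold change ± SE (horizontal axis) of the 9 factors by genotype on the left, and of the 3 factors called by genotype in the 5 other comparisons on the right, with filled symbols for an adjusted p under 0.05. Gata6, Hand2 and Klf15 lie below 0 in each comparison of Gαq with WT and above 0 in each comparison of ERTU with CD, where none is filled.

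Within each diet fewer factors passed. On CD 2 of 9 did, Gata6 and Hand2, where 8.1% of all genes passed (4.1% lower, 4.0% higher). On ERTU 1 of 9 did, Gata6, where 8.17% of all genes passed (4.24% lower, 3.93% higher). The other 6 factors ranged from -0.15 to 0.19 in log2 change on CD and from -0.45 to 0.03 on ERTU, with adjusted p of at least 0.56 and 0.186. Leaving out any 1 of several libraries lost calls. On CD the count fell to 0 without WT CD library 5, Gαq CD library 7 or Gαq CD library 9. It fell to 1 without WT CD library 1, WT CD library 2, Gαq CD library 8 or Gαq CD library 10. On ERTU it fell to 0 without any 1 of WT ERTU libraries 11 and 12 or Gαq ERTU libraries 16, 17 and 20. Over these fits the log2 change on CD ranged from -0.39 to -0.29 for Gata6 and from -0.73 to -0.56 for Hand2. On ERTU that of Gata6 ranged from -0.39 to -0.29. By genotype, with 18 libraries, Gata6, Hand2 and Klf15 were called in all 18 fits that left 1 library out.

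The same counts were taken without the libraries that stood apart. Those fits hold fewer libraries, so loss of precision and the character of the libraries left out cannot be told apart. The SE of Gata6 by genotype was 0.06 with all 18 libraries and 0.11 without those high in Myl7. Without the 4 libraries low in Pdk4, Gata6, Hand2 and Klf15 were again called by genotype, where 2389 of 16643 genes were called. Their log2 changes were -0.30, -0.44 and -0.55 (edgeR adjusted p = 0.0108, 0.0287 and 0.0359). On CD, WT libraries 1, 2 and 5 and Gαq libraries 6 and 10 were left. The count there fell from 2 to 0, where 317 of 16643 genes were called. On ERTU it stayed at 1, where 1427 were called. Without the 9 libraries with Myl7 over 20 CPM, 0 of 9 factors were called, the log2 changes were -0.29, -0.37 and -0.45 (edgeR adjusted p = 0.147, 0.234 and 0.404), and 1470 of 17002 genes were called by genotype where all 18 libraries called 3196 of 16270. Within CD, WT libraries 2 and 4 and Gαq libraries 6, 7 and 10 were left. The count there was also 0, where 306 of 17002 genes were called. Within ERTU only Gαq library 18 was left in its group, so no count is given. By genotype, without the libraries high in Myl7, Gata6 and Gata4 had unadjusted edgeR p of 0.0241 and 0.0282.

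The comparison of diets asked whether ERTU moved the factors. Gata6, Hand2 and Klf15 were each higher on ERTU, by 0.16 ± 0.06, 0.34 ± 0.12 and 0.40 ± 0.17 on the log2 scale (SE) with genotype in the model, and none passed. Their unadjusted p were 0.0223, 0.00813 and 0.025, and edgeR gave each an adjusted p of 0.639. Across the 9 factors 0 were called by edgeR and 0 by DESeq2, where edgeR called 0.0% of all genes, and 3 of 9 had an unadjusted p under 0.05. For all genes tested that was 1252 of 16270. The other 6 factors ranged from -0.18 to -0.03.

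In WT hearts ERTU gave log2 changes of 0.17 ± 0.09 for Gata6, 0.25 ± 0.17 for Hand2 and 0.44 ± 0.24 for Klf15 (SE, edgeR adjusted p = 1.0 for each). In Gαq hearts the changes were 0.15 ± 0.09, 0.43 ± 0.17 and 0.36 ± 0.24 (edgeR adjusted p = 0.669, 0.653 and 0.679). These values moved when single hearts were left out. In WT that of Klf15 was 0.20 without library 11 and that of Hand2 0.15 without library 14. In Gαq that of Klf15 was 0.23 without library 16. Of the 9 factors 0 were called in either genotype by edgeR or DESeq2, where edgeR called 0.0% of all genes in WT and 0.00615% in Gαq. An unadjusted p under 0.05 was found for 0 of 9 in WT and for 1 of 9, Hand2, in Gαq hearts, where 365 and 1240 of 16270 genes had one.

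The mean levels of these 3 factors had 1 order over the groups. Gata6 averaged 68.2 ± 7.27 CPM (SD) in WT ERTU, 60.7 ± 3.83 in WT CD, 53.7 ± 3.05 in Gαq ERTU and 48.5 ± 5.10 in Gαq CD. Hand2 averaged 69.1 ± 15.9, 58.3 ± 7.34, 50.4 ± 8.05 and 37.4 ± 6.73 CPM in that order, and Klf15 114 ± 39.9, 83.8 ± 21.8, 74.0 ± 18.1 and 57.5 ± 15.4 CPM. Libraries of neighbouring groups overlapped for Hand2 and Klf15, and for Gata6 they overlapped between the diets of each genotype. Whether ERTU acted differently in the 2 genotypes was tested as an interaction. It called 0 of 9 factors by edgeR and by DESeq2 (0.0% of all genes by edgeR), and 0 of 9 had an unadjusted p under 0.05, against 313 of 16270 genes. The differences ranged from -0.30 to 0.18 in log2, with SE up to 0.34.

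Variation between hearts of 1 group was shared by some of the factors. After the mean of each group was subtracted from log2 CPM, Srf and Myocd had Pearson r = 0.84 and Spearman rho = 0.78 over 18 libraries, and r = 0.84 without the 2 libraries farthest in Srf. Srf and Tead1 gave r = 0.79 (rho = 0.79), and Myocd and Tead1 gave r = 0.63 (rho = 0.73). Gata6 and Hand2, both lower in Gαq, had r = 0.60 (rho = 0.64) within the groups. Tbx20 and Klf15 deviated in opposite directions, with r = -0.61 (rho = -0.58), as did Nkx2-5 and Tbx20 (r = -0.58). Hand2 and Tead1 gave r = -0.61, but -0.26 without the 2 libraries farthest in Hand2. Gata6 and Klf15 gave r = 0.56, but 0.25 without the 2 libraries farthest in Gata6. Such points share library, depth and dissection, and the values are descriptions without a test.

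**Figure D3:**
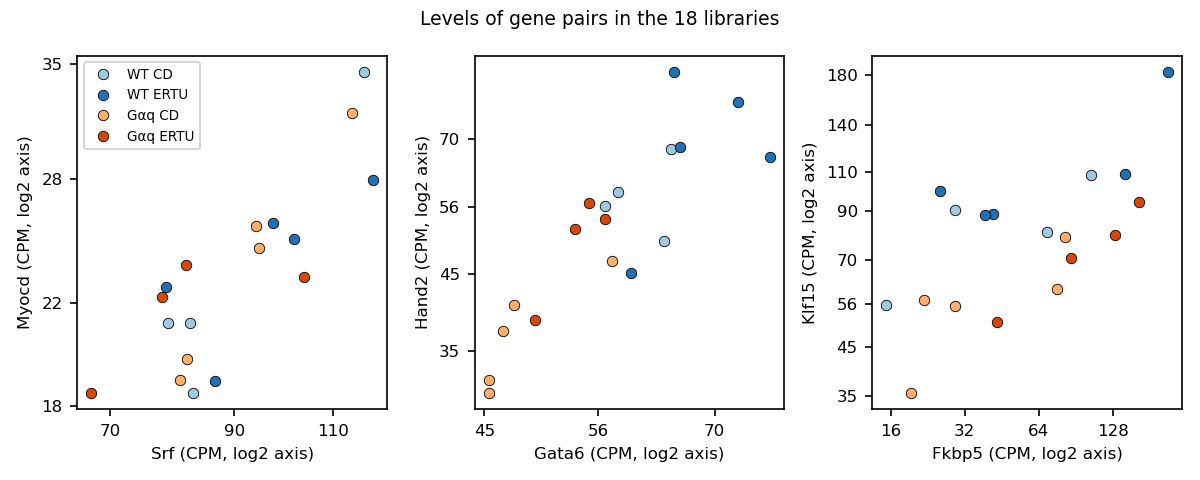
Level of Myocd against Srf, Hand2 against Gata6, and Klf15 against Fkbp5 in the 18 libraries, in CPM on log2 axes, with colours for the groups. Myocd is highest in WT CD library 4 and Gαq CD library 9, where Srf is also among its highest values, Hand2 and Gata6 are both lowest in Gαq CD, and Klf15 is highest in the WT ERTU library with most Fkbp5.

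Several factors varied within groups with 3 genes that glucocorticoids induce. For Klf15 r was 0.83 with Fkbp5, a chaperone of the glucocorticoid receptor (rho = 0.82), 0.65 with Pdk4 (rho = 0.63) and 0.62 with Per1, a clock gene that glucocorticoids also induce (rho = 0.60). WT ERTU library 11, highest in Klf15, was also highest in Fkbp5 (214 CPM) and Pdk4 (6869 CPM). Fkbp5 gave r = 0.60 with Hand2 and 0.54 with Gata6, and -0.60 with each of Tbx20 and Myocd. Pdk4 gave 0.58 with Gata6, and Per1 gave 0.58 with Gata6. Srf gave -0.59 with Pdk4 and -0.58 with Fkbp5, Gata4 -0.50 with Fkbp5, and Tbx20 -0.53 with Per1. Without the 2 libraries farthest in each factor these were -0.44, -0.42, -0.42 and -0.52. With Myocd, Pdk4 gave -0.68, farther from 0 than its r with Klf15, but not by rho (-0.54 against 0.63). Without the 2 libraries farthest in each factor, r with Pdk4 was 0.63 for Klf15, 0.44 for Gata6 and -0.33 for Myocd. With Fkbp5 it was then 0.79 for Klf15, 0.45 for Hand2, 0.32 for Gata6, -0.56 for Tbx20 and -0.49 for Myocd. With Per1 it was 0.57 for Klf15 and 0.41 for Gata6. The lowest Klf15 value of WT CD was in library 4, where Pdk4 was at 166 CPM against 3500 to 3976 CPM in the other WT CD hearts. Gαq CD library 7, lowest in Klf15 of its group, had Pdk4 at 150 CPM, but library 9, with Pdk4 at 105 CPM, and library 8, with 261 CPM, were near the group mean in Klf15. Of 15 glucocorticoid-responsive genes, 1 was called by genotype, Klf9, and 14 of 15 were lower in Gαq (median log2 change -0.34, but 0.18 and 0 calls without the libraries high in Myl7). By diet 0 of 15 were called by edgeR and 0 by DESeq2, 9 had an unadjusted p under 0.05, and 14 of 15 were higher on ERTU (median 0.54, where all genes gave 0.00). Their part in the Klf15 values was not tested. Among 15 clock genes 0 were called by genotype with edgeR and 0 with DESeq2, and 4 had an unadjusted p under 0.05 (median -0.05), where 5184 of 16270 genes had one.

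The genes most like each called factor within groups, of 13098 compared over 18 libraries, were Arrdc2 (r = 0.93), Phyhd1 (r = 0.91) and Hpcal1 (r = 0.90) for Klf15. For Hand2 they were Pla2g7 (r = 0.90), Fam181b (r = 0.82) and Clec10a (r = 0.81), and for Gata6 Pik3c3 (r = 0.82), Nop9 (r = 0.80) and Brpf1 (r = 0.79). None of these 9 genes was called by genotype. Being the highest of many, these r are higher than those of pairs chosen by name.

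Other genes of the same network were counted by list, and the lists too were chosen with earlier results of these data known. Of 32 other cardiac transcription factors, 5 were called by genotype, against 19.6% of all genes. Irx5 (log2 change 0.88 ± 0.17, SE), Irx3 (0.72 ± 0.18) and Foxc2 (0.58 ± 0.20) rose in Gαq, and Zfpm2 (-0.30 ± 0.09) and Irx1 (-0.75 ± 0.26) fell. Zfpm2 encodes FOG2, the cofactor that binds GATA4 and GATA6, and it averaged 27.8 ± 1.81 CPM (SD, n = 4) in WT CD and 21.6 ± 2.83 (n = 5) in Gαq CD. The median change of the list was 0.01, and 2 genes were called without the libraries low in Pdk4. Of 13 other Krüppel-like factors only Klf9 was called, and it fell by 0.37 ± 0.11 on the log2 scale (SE, edgeR adjusted p = 0.0281), a call lost without either set of libraries.

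Partners of SRF and TEAD1 were called in no larger share than the 19.6% of all genes. Of 13 SRF and myocardin cofactors 2 were called, Fhl2 lower and Elk1 higher, with a list median of -0.08, and 1 without the libraries high in Myl7. Fhl2, a LIM protein that binds SRF and restrains it, was at 807 ± 335 CPM (SD, n = 4) in WT CD and 233 ± 47.8 (n = 5) in Gαq CD, a log2 change by genotype of -1.89 ± 0.17 (SE, edgeR adjusted p = 1.07e-07). Of 20 genes of the TEAD and Hippo pathway, 3 rose and 0 fell: Yap1, the coactivator of TEAD1 (0.27 ± 0.06), Vgll2, another TEAD cofactor (1.17 ± 0.36), and Amot, a scaffold that holds YAP outside the nucleus (0.41 ± 0.14), with a list median of 0.09. Without the libraries low in Pdk4, 1 of these 20 was called.

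The known targets of the factors were counted in the same way, where 9.72% of all genes were called higher and 9.92% lower. Of 16 genes listed for GATA4, NKX2-5 and TBX20, 5 rose and 5 fell in Gαq (median 0.13). The natriuretic peptide genes Nppa (5.03 ± 0.26) and Nppb (2.09 ± 0.18) and the survival gene Bcl2 (1.76 ± 0.14) rose, and the calcium handling genes Atp2a2 (-0.97 ± 0.11), Ryr2 (-0.82 ± 0.15) and Slc8a1 (-0.64 ± 0.14) fell, all log2 changes ± SE. Of 13 SRF targets 3 rose and 0 fell (median 0.08), namely Acta1, the skeletal actin of the fetal program (1.12 ± 0.32), Des (0.32 ± 0.10) and Junb (0.40 ± 0.13). Without the libraries high in Myl7, 0 of these 13 were called and the median was -0.15. Of 10 targets of TEAD and YAP 1 rose, the mechanical stress gene Ankrd1 (1.30 ± 0.12), with a list median of 0.10. Ankrd1 is also 1 of the 5 risen genes listed for GATA4, NKX2-5 and TBX20.

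Of 13 genes listed as KLF15 targets 11 were lower in Gαq and 0 higher, against 9.92% of all genes lower. The list median was -0.56, and Klf15 itself stood at -0.58. Gpt, an alanine aminotransferase, changed by -1.55 ± 0.11 on the log2 scale (SE, edgeR adjusted p = 3.36e-09), Bckdhb, a subunit of the branched-chain ketoacid dehydrogenase, by -0.67 ± 0.07 (edgeR adjusted p = 1.22e-06), and Acadm, an enzyme of fatty acid oxidation, by -0.58 ± 0.07 (edgeR adjusted p = 7.2e-06). The same list gave 9 calls without the libraries high in Myl7 and 11 without those low in Pdk4. By diet 0 of 13 were called by edgeR and 0 by DESeq2, 1 had an unadjusted p under 0.05, 12 of 13 were higher on ERTU, and the median was 0.14. Most of these genes are mitochondrial or metabolic enzymes that other regulators control as well, and KLF15 binding was not measured.

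**Figure D4:**
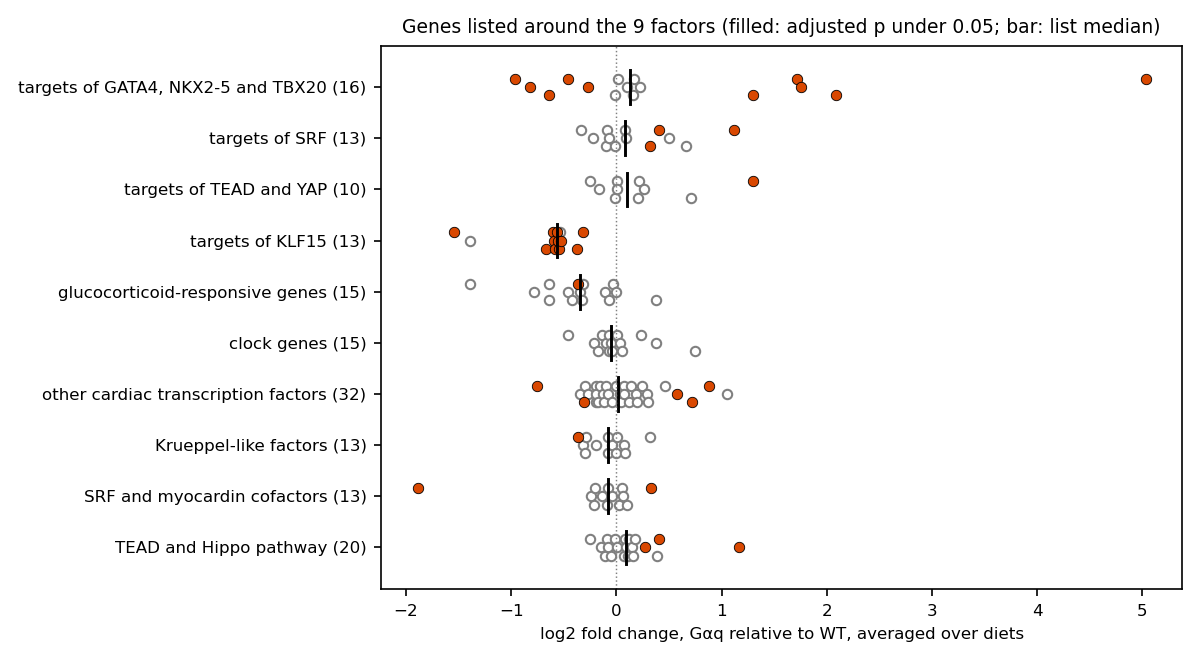
Log2 fold change by genotype (horizontal axis, Gαq relative to WT) of each gene in 10 lists around the factors (rows, with the number tested), filled where the adjusted p was under 0.05, with a bar at the list median. The KLF15 targets all lie below 0, the targets of GATA4, NKX2-5 and TBX20 lie on both sides, and the other lists centre near 0 except the glucocorticoid-responsive genes at -0.34.

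Markers of cell types moved with genotype too. Of 9 fibroblast markers 7 rose in Gαq (median 0.62), and their summed level was 1677 to 3188 CPM in WT CD, 1570 to 2934 in WT ERTU, 3063 to 4460 in Gαq CD and 2952 to 3636 in Gαq ERTU. Of 10 cardiomyocyte markers 4 fell and 0 rose (median -0.15), with sums of 36310 to 52450 CPM in WT CD, 39580 to 48120 in WT ERTU, 41100 to 47040 in Gαq CD and 39470 to 48140 in Gαq ERTU. Ryr2 and Tnni3, among those that fell, were also counted among the targets of GATA4, NKX2-5 and TBX20. Of 8 endothelial markers 2 fell (median -0.23), with sums of 1461 to 1843 CPM in WT CD, 1497 to 1680 in WT ERTU, 1247 to 1483 in Gαq CD and 1230 to 1514 in Gαq ERTU. Their part in the lower Gata6, Hand2 and Klf15 was not tested. Of 6 pericyte markers 2 fell and 1 rose. Of 9 smooth muscle markers 1 fell and 1 rose, the latter Des, which was also counted among the SRF targets. Of 6 epicardial markers 3 rose (Lrrn4, Msln and Upk3b), each averaging under 1 CPM in both WT groups. The summed epicardial level had a median of 8.81 CPM in WT CD, 9.05 in WT ERTU, 8.64 in Gαq CD and 19.0 in Gαq ERTU. Of macrophage markers 1 of 8 rose, of lymphocyte markers 1 of 4 and of skeletal muscle markers 1 of 3. None of 6 atrial, 5 red blood cell and 5 fat markers was called by edgeR or DESeq2, and 0 of them had an unadjusted p under 0.05. Yet all 6 atrial (median 0.90) and all 5 fat markers (median 0.97) were higher in Gαq. All 5 red blood cell markers were lower (median -0.23). The summed atrial level spread widely, at 43.9 to 382 CPM in WT CD, 55.5 to 406 in WT ERTU, 57.2 to 990 in Gαq CD and 147 to 652 in Gαq ERTU. Without the libraries high in Myl7, endothelial and epicardial calls fell to 0, and without those low in Pdk4, cardiomyocyte calls fell to 2. No marker of these lists was at 0 in all 18 libraries.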

How the data were processed

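Libraries came from poly(A)-selected LV RNA (NEBNext Ultra II), read as paired ends. The authors aligned reads to mm10 with STAR (2.6.0c) and counted uniquely aligned proper pairs per Ensembl gene with featureCounts (Subread 1.6.2), with a same-strand setting. The deposited table holds these raw counts, and a second deposited table holds log2-scale values from the variance-stabilizing transformation of DESeq2, used here in 1 alternative only. Symbols and positions came from GENCODE M21 (build GRCm38), which matched 55190 of 55450 gene IDs.

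Counts were tested with edgeR 4.0.16 in R 4.3.3. Genes were kept by filterByExpr over the 4 groups (16270 genes, leaving out 0.0906% of the counts) and scaled by TMM. An additive model gave genotype and diet, and a model with a mean for each group gave the 5 other comparisons. Benjamini-Hochberg adjustment covered all 16270 genes, and an adjusted p under 0.05 is called. Levels are CPM after TMM scaling, with a prior count of 2 on the log2 scale. Exact permutation tests (36 over the members, unadjusted) compared mean log2 CPM between groups. The members and lists were chosen with earlier results of these data known. All members are named, with up to 3 list genes per direction of smallest p by genotype and the 3 genes most like each called member. The fit was tested on simulated data. Alternatives were other scaling, filters, DESeq2 1.42.0, limma 3.58.1, other models, and leaving out libraries. No replicate numbers paired the columns, and no sequencing batch was given.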

Additional observations from a re-analysis of the deposited data

Results flagged for a closer look

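Among 36 groups of 4 or 5 libraries (9 factors in 4 groups), 4 held a library far from the rest, measured as its gap to the nearest library over the range of the group. Chance flags about 1 in 20 groups, or 1.8 of 36. The factors were read in the same libraries, so the groups are not independent and the count shows no excess over chance. Klf15 in WT ERTU library 11 (184 CPM) gave a ratio of 0.782. Gata6 in Gαq CD library 6 (57.5 CPM) gave 0.816. In WT CD library 4, Srf (117 CPM) gave 0.892 and Myocd (34.5 CPM) gave 0.831. WT CD library 4 was also low in Pdk4, at 166 CPM, and WT ERTU library 11 was highest in Pdk4, at 6869 CPM. No explanation was tested.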

How the results depend on the processing

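The count of 3 factors by genotype, Gata6, Hand2 and Klf15, was the same under 8 other settings (scaling, filters, DESeq2, limma, model) and in all 18 fits without 1 library. It was 0 without the 9 libraries with Myl7 over 20 CPM, a choice made after seeing the data. For Gαq on CD the count of 2 was 1 with no filter on low counts, 1 with only the 2 groups fitted, 0 without the libraries high in Myl7, 0 without the 4 libraries low in Pdk4 (also chosen after seeing the data) and 0 to 2 over the fits without 1 library. For Gαq on ERTU the count of 1 was 0 with no filter and 0 to 2 over the fits without 1 library. Without the libraries high in Myl7 only Gαq ERTU library 18 was left in its group, so that count is not given. Counts of 0 for diet, ERTU in either genotype and the interaction stayed at 0 under every alternative run. The log2 change of Tbx20 by genotype turned to -0.0087 without the libraries high in Myl7 and -0.0474 without those low in Pdk4, and that of Myocd ranged from -0.1192 to 0.0420 over the fits without 1 library, the latter without WT CD library 4.

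List counts by genotype moved by more than 1.5 times in these smaller sets, where calls over all genes fell too. All 18 libraries called 3196 of 16270 genes. The set without libraries high in Myl7 called 1470 of 17002, and that without libraries low in Pdk4 called 2389 of 16643. Without the libraries high in Myl7, SRF targets went from 3 to 0, SRF cofactors from 2 to 1, Krüppel-like factors from 1 to 0, glucocorticoid-responsive genes from 1 to 0, pericyte markers from 3 to 1, smooth muscle markers from 2 to 1, endothelial markers from 2 to 0, epicardial markers from 3 to 0, atrial markers from 0 to 2, and macrophage, lymphocyte and skeletal muscle markers from 1 to 0 each. Without those low in Pdk4, other cardiac transcription factors went from 5 to 2, TEAD and Hippo genes from 3 to 1, Krüppel-like factors from 1 to 0, TEAD and YAP targets from 1 to 2, cardiomyocyte markers from 4 to 2, endothelial markers from 2 to 1, epicardial markers from 3 to 0 and skeletal muscle markers from 1 to 0. With DESeq2 epicardial markers went from 3 to 1. The cause was not tested. No paired analysis was possible because the table numbers its libraries across all groups.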
